A study of Mus musculus with 20 samples.

Results

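The 10 genes described here encode transcription factors that divide the developing neural tube from back to belly: Pax6, Irx3, Dbx1, Dbx2, Pax3, Pax7, Nkx6-1, Nkx6-2, Nkx2-2 and Olig2. They were chosen by name, and the estimated counts of all annotated transcripts of each were summed, which gave 10 of the 35975 genes in the tables. All 10 were found and all 10 passed the filter on low counts, so that each is among the 18555 genes tested. Polyadenylated RNA was sequenced from TKO and WT cells of ES-E14TG2a, a line of mouse embryonic stem cells. D0 is the stem cell state, on gelatin with serum and LIF. D2, D4, D6 and D8 are days of differentiation towards neural progenitors (NPC) on laminin in N2B27 medium. Each of the 10 groups of genotype and day holds 2 biological replicate libraries, 20 in all. The labels do not say which genes the TKO cells lack or from how many clones they come, and the protocol names no morphogen added beside the N2 and B27 supplements.

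In the vertebrate neural tube, Sonic hedgehog (Shh) from the notochord and floor plate acts from the ventral side, and Bmp and Wnt signals from the roof plate act from the dorsal side. The progenitors read these signals as combinations of homeodomain and helix-loop-helix factors, and each combination precedes a class of interneurons or motor neurons. Pax6, Irx3, Dbx1, Dbx2, Pax7 and Pax3 are genes that Shh represses, while Nkx6-1, Nkx6-2, Nkx2-2 and Olig2 need it. Borders between progenitor domains form where a gene of the first kind and a gene of the second repress each other, as known for Pax6 with Nkx2-2, Dbx2 with Nkx6-1, Dbx1 with Nkx6-2, and Irx3 with Olig2.

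Proximal promoter sequence is shown for 3 of the genes, because 9 of the 10 genes fell in TKO after D6 and these mark the extremes at D8. Nkx6-1 and Dbx1 had the largest differences between TKO and WT at D8, and Olig2 was the gene that did not pass there. Each window runs from 250 bases before to 50 bases after the RefSeq start on GRCm38.p6, 5′ to 3′ on the strand of the gene, with each CG dinucleotide in capitals.
Nkx6-1 (chr5:101664662-101664961, - strand): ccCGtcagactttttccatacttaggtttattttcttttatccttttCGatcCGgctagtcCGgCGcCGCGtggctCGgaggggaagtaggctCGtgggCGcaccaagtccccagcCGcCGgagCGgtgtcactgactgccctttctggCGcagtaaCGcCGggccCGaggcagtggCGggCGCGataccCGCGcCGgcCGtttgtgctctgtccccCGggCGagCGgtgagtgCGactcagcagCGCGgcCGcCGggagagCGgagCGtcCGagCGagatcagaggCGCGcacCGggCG
Dbx1 (chr7:49636786-49637085, - strand): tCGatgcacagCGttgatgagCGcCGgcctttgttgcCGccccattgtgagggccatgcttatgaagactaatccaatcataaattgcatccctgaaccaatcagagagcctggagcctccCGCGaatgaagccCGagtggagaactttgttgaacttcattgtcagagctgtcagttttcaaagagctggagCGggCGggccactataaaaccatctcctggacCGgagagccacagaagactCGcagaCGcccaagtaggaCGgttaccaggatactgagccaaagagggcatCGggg
Olig2 (chr16:91225300-91225599, + strand): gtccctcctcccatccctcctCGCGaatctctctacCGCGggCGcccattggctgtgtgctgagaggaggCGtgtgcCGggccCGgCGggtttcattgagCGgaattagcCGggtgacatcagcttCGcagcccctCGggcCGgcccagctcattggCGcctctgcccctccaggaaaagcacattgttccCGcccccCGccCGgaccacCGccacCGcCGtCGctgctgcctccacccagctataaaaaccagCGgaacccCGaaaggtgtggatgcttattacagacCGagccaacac
RefSeq windows were found for 9 of the 10 genes (10 windows, since Pax6 has 2), and Pax3 had none. The CG count of these windows ran from 10 in Dbx2 to 40 in Nkx6-1, against a median of 7 over all 32851 windows. The 3 printed windows hold 40, 15 and 25, and 96.1%, 65.4% and 81.6% of all windows held fewer. For the Dbx2 window that share was 56.5%. The letters TGGGTGGTC, a core bound by Gli proteins, occurred on either strand in 0 of the 10 windows and in 0.253% of all windows. The homeodomain core TAATTA, searched on both strands, also occurred in 0 of the 10 and in 5.29% of all windows.

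Totals per library ran from 26015282 to 38074768 estimated counts. The WT D0 replicates stood furthest apart: their chi-square, divided by its degrees of freedom, was 29.7, against 2.98 to 11.4 in the other groups. At D0 the 6 pluripotency markers summed to 5340 to 5510 CPM (counts scaled to library size after TMM normalisation) in TKO and 5480 to 5680 CPM in WT. At D6 the 6 neural progenitor markers Sox1, Sox2, Sox3, Nes, Fabp7 and Vim summed to 2020 to 2070 CPM in TKO and 2630 to 2810 CPM in WT. Several of the 10 genes also work in pancreas, eye or somites. At D8 the 7 pancreatic endoderm genes listed summed to 9.02 to 14.5 CPM in TKO and 6.11 to 8.73 CPM in WT, most of it Sox17, an endoderm gene, while Pdx1 was at most 0.105 CPM at D6 and D8. At D6 the pancreatic sums were 9.65 to 12.7 CPM in TKO and 1.49 to 2.45 CPM in WT. The 7 eye field and lens genes summed to 13.7 to 18.5 CPM in TKO and 11.4 to 14.1 CPM in WT at D8. At D6 these 7 summed to 25 to 26.5 CPM in TKO and 17.9 to 19.8 CPM in WT. At these days 1 of the 7 (2 in WT at D6) was at 0 in both libraries of a group. The 7 somite and muscle genes summed to 11.2 to 14.9 CPM in TKO and 3.19 to 4.13 CPM in WT at D8, and to 4.56 to 5.53 CPM in TKO and 1.99 to 3.12 CPM in WT at D6, most of it Tcf15 in TKO at D8, with the muscle gene Myod1 at most 0.28 CPM. The part of these cells in the results below was not tested.

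The question at D8 was how TKO and WT cells differed at the end of the differentiation. Each of the 10 genes was lower in both TKO libraries than in both WT libraries. How often this held over all genes was not computed. By the test, 9 of the 10 passed as lower, with 0 higher. Over all genes tested, 31.8% were called lower and 35.8% higher. The median log2 fold change of TKO over WT was -2.07 for the 10 genes and 0.04 for all genes. In bulk RNA, fewer cells that express a gene and less of its RNA per cell cannot be told apart. Calls are by the edgeR quasi-likelihood test over all genes at a Benjamini-Hochberg adjusted p under 0.05, and log2 fold changes carry their standard error (SE).

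Nkx6-1, a homeodomain factor of ventral progenitors, had the lowest level relative to WT. It stood at 8.81 and 7.23 CPM in the TKO libraries at D8, against 77.6 and 97.9 CPM in the WT libraries, so that its TKO mean was 9.13% of the WT mean (log2 fold change -3.46, SE 0.167, adjusted p = 7.14e-12). Dbx1, which marks progenitors in the middle of the tube, was at 25.5 and 21 CPM in TKO, against 191 and 196 CPM in WT. That was 12% of the WT mean (log2 fold change -3.06, SE 0.145, adjusted p = 1.34e-11). Nkx6-2, a close relative of Nkx6-1, was at 6.68 and 4.99 CPM in TKO, against 26.7 and 32.6 CPM in WT (log2 fold change -2.35, SE 0.177). Nkx6-2 shares 11.6% of its 31-mers with Inpp5a, a gene on the opposite strand, so its counts are less certain, while Inpp5a itself lay between 27.8 and 41.3 CPM in all 10 groups.

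Irx3, an Iroquois factor of intermediate and dorsal progenitors, was at 51 and 50.9 CPM in TKO, against 230 and 228 CPM in WT (log2 fold change -2.17, SE 0.0867). Nkx2-2, the most ventral homeodomain factor of the set, was at 3.81 and 3.34 CPM in TKO, against 14.3 and 17.9 CPM in WT (log2 fold change -2.17, SE 0.243). Both genes were at 22.2% of their WT means. Dbx2, the neighbour of Dbx1 in the tube, was at 0.909 and 0.582 CPM in TKO and at 2.79 and 3 CPM in WT (log2 fold change -1.96, SE 0.323, adjusted p = 3.47e-05). With counts from length-scaled TPM the difference for Dbx2 was -1.29 and still passed.

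The Pax genes were next. Pax7, a dorsal progenitor factor, was at 15.3 and 16.3 CPM in TKO, against 60.4 and 54.2 CPM in WT (log2 fold change -1.86, SE 0.128). Pax6, which is graded across the ventral and intermediate tube, was at 41.6 and 40.9 CPM in TKO, against 142 and 149 CPM in WT (log2 fold change -1.82, SE 0.0632, adjusted p = 1.28e-13). Pax3, the dorsal paralog of Pax7, was at 18.2 and 18.5 CPM in TKO, against 59.1 and 57.7 CPM in WT (log2 fold change -1.67, SE 0.167). TKO means of these 3 genes were 27.5%, 28.3% and 31.4% of their WT means. Olig2, the helix-loop-helix factor of motor neuron progenitors, was at 7 and 13 counts in TKO and 20 and 22 counts in WT, or 0.245 and 0.398 CPM against 0.569 and 0.659 CPM. Its libraries did not overlap, and the difference did not pass (log2 fold change -0.91, SE 0.563, adjusted p = 0.164). None of the 9 calls was lost under any of the 10 alternatives run for each.

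**Figure D1:**
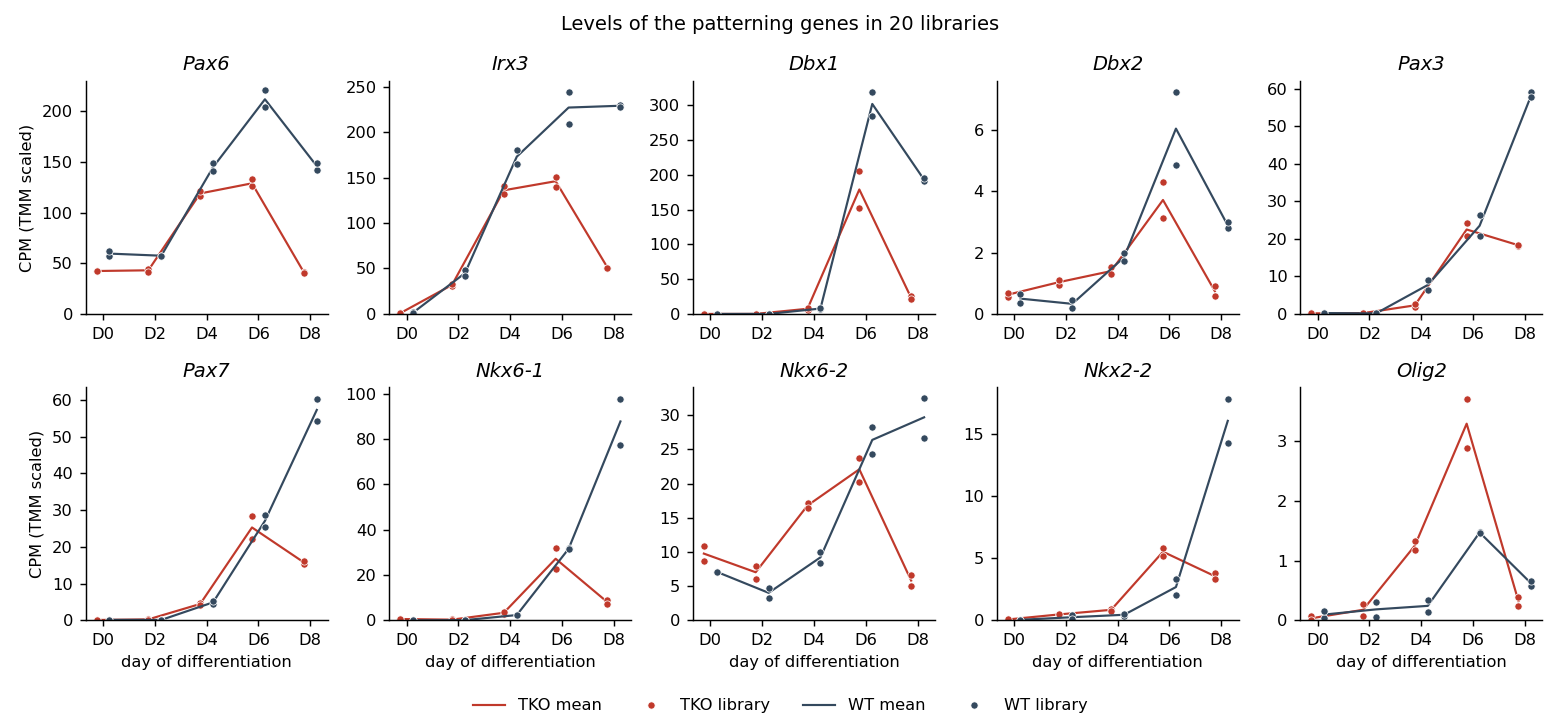
Levels of the 10 genes in CPM after TMM scaling (vertical axis, linear, from 0) at D0 to D8 (horizontal axis), with TKO in red at the left of each day and WT in dark blue at the right. Points are single libraries and lines join the means of 2 libraries; at D8 the TKO libraries lie below the WT libraries in all 10 panels, whereas Olig2 and Nkx2-2 have higher TKO points at D6.

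The difference between the genotypes widened between D6 and D8. In TKO, 9 of the 10 genes fell over this step and 0 rose, with 24.5% of all genes falling and 25.5% rising. In WT, 4 of the 10 fell and 4 rose, with 30.4% of all genes falling and 26.6% rising. The test of the difference between these steps (the interaction of genotype with D8 against D6) passed for all 10 genes, each with the lower change in TKO, and for 49.9% of all genes. Its median was -1.91 for the 10 genes and -0.02 for all genes. The D8 libraries of TKO and WT enter both this test and the comparison at D8, so these results are not independent.

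The 4 genes that rose in WT after D6 were Nkx2-2, Nkx6-1, Pax3 and Pax7. Nkx2-2 was at 14.3 and 17.9 CPM in the WT libraries at D8, against 3.36 and 2.02 CPM at D6 (log2 fold change 2.57, SE 0.249). In TKO it was at 3.81 and 3.34 CPM at D8, against 5.21 and 5.86 CPM at D6 (-0.63 on the log2 scale with SE 0.249, adjusted p = 0.0436). This TKO call was lost in 6 of 10 alternatives, among them leaving out any single TKO library of D6 or D8 (adjusted p 0.0739 to 0.203), and over the 10 the adjusted p ran from 0.00994 to 0.203. The interaction for Nkx2-2 was -3.20 (SE 0.351, adjusted p = 7.19e-07).

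Nkx6-1 rose in WT by 1.47 (SE 0.148) and fell in TKO, where the change was -1.76 (SE 0.167), both on the log2 scale. Its TKO libraries at D6 were at 22.6 and 31.8 CPM, and the WT libraries were at 32 and 31.3 CPM, so that the genotypes overlapped there. The interaction was -3.23 (SE 0.223), close to that of Nkx2-2. Pax7 rose in WT by 1.08 (SE 0.123), and its change in TKO was -0.68 (SE 0.13). Pax3 rose in WT by 1.31 (SE 0.164), and its TKO change of -0.29 (SE 0.169, adjusted p = 0.164) did not pass. At D6 the TKO libraries of Pax3 and Pax7 overlapped those of WT.

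Pax6, Dbx1, Dbx2 and Olig2 fell in both genotypes, and each fell further in TKO by the interaction. Dbx1 had a log2 change of -2.95 (SE 0.145) in TKO and -0.64 (SE 0.128) in WT. Pax6 had -1.65 (SE 0.0632) in TKO and -0.54 (SE 0.0593) in WT. Dbx2 had -2.32 (SE 0.32; -1.48 with length-scaled TPM counts) in TKO and -1.06 (SE 0.265) in WT. The WT call of Dbx2 was lost without WT D6 replicate 2 and with length-scaled TPM counts (adjusted p 3.37e-05 to 0.0589 over 10 alternatives). Its interaction of -1.26 (adjusted p = 0.0184) was lost in 5 of 14 alternatives, with adjusted p from 0.00415 to 0.453 over them. One of the 5 used length-scaled TPM counts, where the interaction was -0.57, and 4 left out WT D6 replicate 1, WT D8 replicate 2, TKO D6 replicate 2 or TKO D8 replicate 2 (adjusted p 0.0529 to 0.12).

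Olig2 was at 0.245 and 0.398 CPM in TKO at D8, against 3.71 and 2.88 CPM at D6 (log2 fold change -3.33, SE 0.501), the lowest estimate of the 10 genes in TKO and the one with the widest SE. In WT it was at 0.569 and 0.659 CPM at D8, against 1.48 and 1.46 CPM at D6 (-1.26 on the log2 scale with SE 0.469, adjusted p = 0.0299), a call lost in 5 of 10 alternatives, 4 of which left out 1 WT library (adjusted p from 0.00316 to 0.13 over the 10). Its interaction of -2.07 (SE 0.699, adjusted p = 0.02) was lost without WT D8 replicate 2, TKO D6 replicate 1 or TKO D8 replicate 1 (0.0638 to 0.0862), and the range over 14 alternatives was 0.00144 to 0.0862. Irx3 and Nkx6-2 fell in TKO (log2 changes of -1.51 and -1.92), and their WT changes of 0.02 (adjusted p = 0.889) and 0.17 (adjusted p = 0.368) did not pass.

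**Figure D2:**
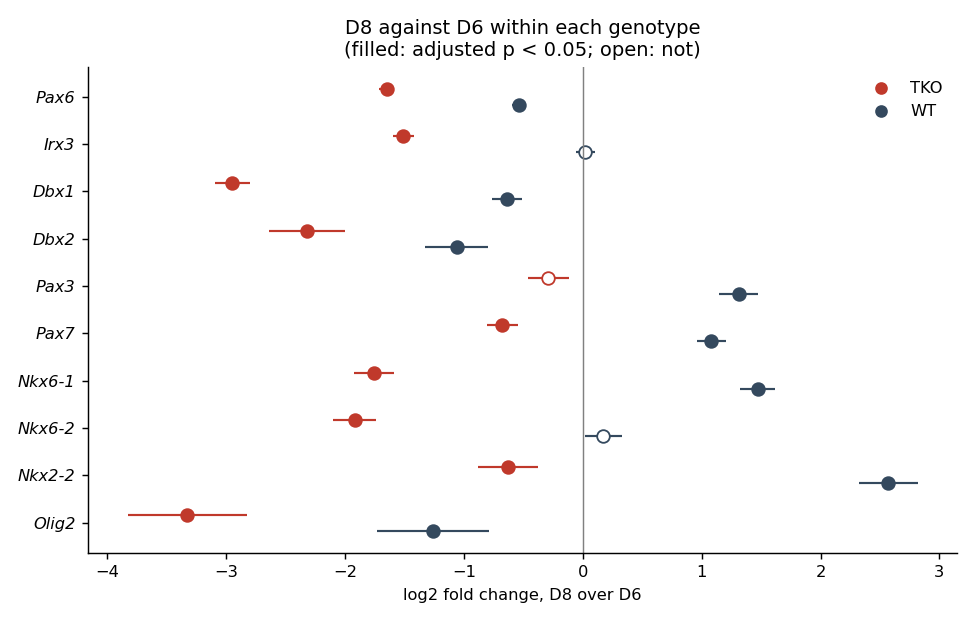
Log2 fold change of D8 over D6 (horizontal axis) for each gene, with TKO in red above WT in dark blue. Points are edgeR estimates over 2 libraries per group, bars are 1 SE, and filled points passed at an adjusted p under 0.05; the TKO point lies left of the WT point for all 10 genes, and Pax3 is the open TKO point at -0.29.

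Before D8 the differences between genotypes were of mixed sign. At D6, 2 of the 10 genes were higher in TKO and 4 lower, with 20.9% and 20.3% of all genes. At D4, 2 were higher and 3 lower, with 15.1% and 13.2% of all genes. At D2, 2 were higher and 2 lower, with 18.4% and 16.9%, and at D0, 1 was higher and 2 lower, with 19.4% and 19.9%. At D0 and D2 the shares of the 10 are near those of all genes. The medians of -0.10 at D4 and -0.24 at D6 stand beside 0.00 for all genes at both days.

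Pax6 and Irx3 were lower in TKO at every one of the 5 days. Pax6 had TKO means of 42.4 ± 0.327, 43.1 ± 1.65, 119 ± 3.48, 129 ± 5.15 and 41.2 ± 0.497 CPM from D0 to D8 (SD, n = 2). The WT means were 59.6 ± 3.76, 57.5 ± 0.234, 145 ± 5.82, 212 ± 12 and 146 ± 5.5 CPM. The difference was smallest at D4 (log2 fold change -0.28, SE 0.0598, adjusted p = 0.00171), and it was -0.49 at D0, -0.42 at D2 and -0.72 at D6. Both TKO libraries lay below both WT libraries at each day.

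Irx3 had TKO means of 0.825 ± 0.231, 31.9 ± 1.77, 136 ± 6.33, 146 ± 8.36 and 51 ± 0.114 CPM from D0 to D8, and WT means of 1.51 ± 0.162, 44.9 ± 4.46, 173 ± 10.9, 227 ± 25 and 229 ± 1.49 CPM (SD, n = 2). Its log2 differences from D0 to D6 were -0.88, -0.49, -0.34 and -0.64. The call at D0 was lost in 3 of 10 alternatives, without WT D0 replicate 1, without TKO D0 replicate 1 and with the 2 groups fitted alone (adjusted p 0.00252 to 0.139 over the 10). The call at D4 was lost without WT D4 replicate 2 or TKO D4 replicate 1 (3.9e-05 to 0.0605 over the 10).

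The calls of a higher level in TKO before D8, which came at about the rate of all genes, are given next, starting with Olig2. It was at 1.17 and 1.32 CPM in TKO at D4, against 0.148 and 0.337 CPM in WT (log2 fold change 2.35, SE 0.545, adjusted p = 0.00356). These values rest on 41 and 40 counts in TKO and 5 and 11 counts in WT. The call was lost without WT D4 replicate 1 (log2 fold change 1.87, adjusted p = 0.0521) and the value was 3.04 without WT D4 replicate 2, and the adjusted p over 10 alternatives ran from 2.96e-06 to 0.0521. At D6 Olig2 was at 3.71 and 2.88 CPM in TKO, against 1.48 and 1.46 CPM in WT (log2 fold change 1.16, SE 0.416, adjusted p = 0.0327). That call was lost in 6 of 10 alternatives, among them leaving out any single library of the 2 groups, with adjusted p from 0.00338 to 0.18.

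Nkx2-2 was at 5.21 and 5.86 CPM in TKO at D6, against 3.36 and 2.02 CPM in WT (log2 fold change 1.03, SE 0.255, adjusted p = 0.0034). The call was lost without WT D6 replicate 2 (log2 fold change 0.71, adjusted p = 0.0638; 2.2e-05 to 0.0638 over 10 alternatives). At D2 and D4 the log2 differences of Nkx2-2 were 1.02 and 0.92, at adjusted p of 0.158 and 0.0989. Nkx6-2 was at 17.1 and 16.5 CPM in TKO at D4, against 9.98 and 8.46 CPM in WT (log2 fold change 0.86, SE 0.17, adjusted p = 0.000947). It also passed at D2 (log2 fold change 0.79), where the call was lost without WT D2 replicate 1 or TKO D2 replicate 1 (4.14e-06 to 0.104 over 10 alternatives). All values of Nkx6-2 are subject to the sequence shared with Inpp5a.

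Nkx6-1 was counted 22 and 12 times in the TKO libraries at D0, against 1 and 0 times in the WT libraries, a count ratio of 37.7 with a 95% counting interval of 6.33 to 1530 (adjusted p = 0.000595). Without WT D0 replicate 1, no WT count is left. These counts are 0.766 and 0.439 CPM in TKO, low beside the 22.6 and 31.8 CPM of the TKO libraries at D6. The log2 difference of Nkx6-1 was 1.48 at D2 and 0.50 at D4, at adjusted p of 0.147 and 0.127.

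Among genes that Shh represses, Pax3 was at 1.83 and 2.74 CPM in TKO at D4, against 6.31 and 9.13 CPM in WT (log2 fold change -1.77, SE 0.226, adjusted p = 1.49e-05). At D6 it was at 20.7 and 24.3 CPM in TKO and 20.8 and 26.3 CPM in WT, so that the libraries overlapped. From D4 to D6 Pax3 rose by 3.31 on the log2 scale in TKO and by 1.61 in WT, and the interaction passed (1.70, SE 0.282, adjusted p = 0.00038). Pax7 did not differ by the test at D0, D2, D4 or D6, with adjusted p of 0.148 or more.

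Dbx1 was at 153 and 205 CPM in TKO at D6, against 285 and 319 CPM in WT (log2 fold change -0.75, SE 0.128, adjusted p = 0.000175), after 6.18 and 8.72 CPM in TKO and 7.61 and 7.97 CPM in WT at D4. Dbx2 was higher in TKO at D2, at 0.96 and 1.12 CPM against 0.194 and 0.466 CPM in WT (log2 fold change 1.58, SE 0.419), and lower at D6, at 3.13 and 4.32 CPM against 4.85 and 7.25 CPM in WT (-0.70 on the log2 scale with SE 0.262, adjusted p = 0.0401). The D2 call was lost without WT D2 replicate 1 (log2 fold change 1.14) and with length-scaled TPM counts (0.80), and it was 2.40 without WT D2 replicate 2, with adjusted p from 0.000413 to 0.274 over 10 alternatives. The D6 call was lost in 5 of 10, among them without WT D6 replicate 2 or TKO D6 replicate 1, with adjusted p from 0.0122 to 0.375. Without WT D6 replicate 2, 3 of the 10 genes passed at D6 in place of 6.

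**Figure D3:**
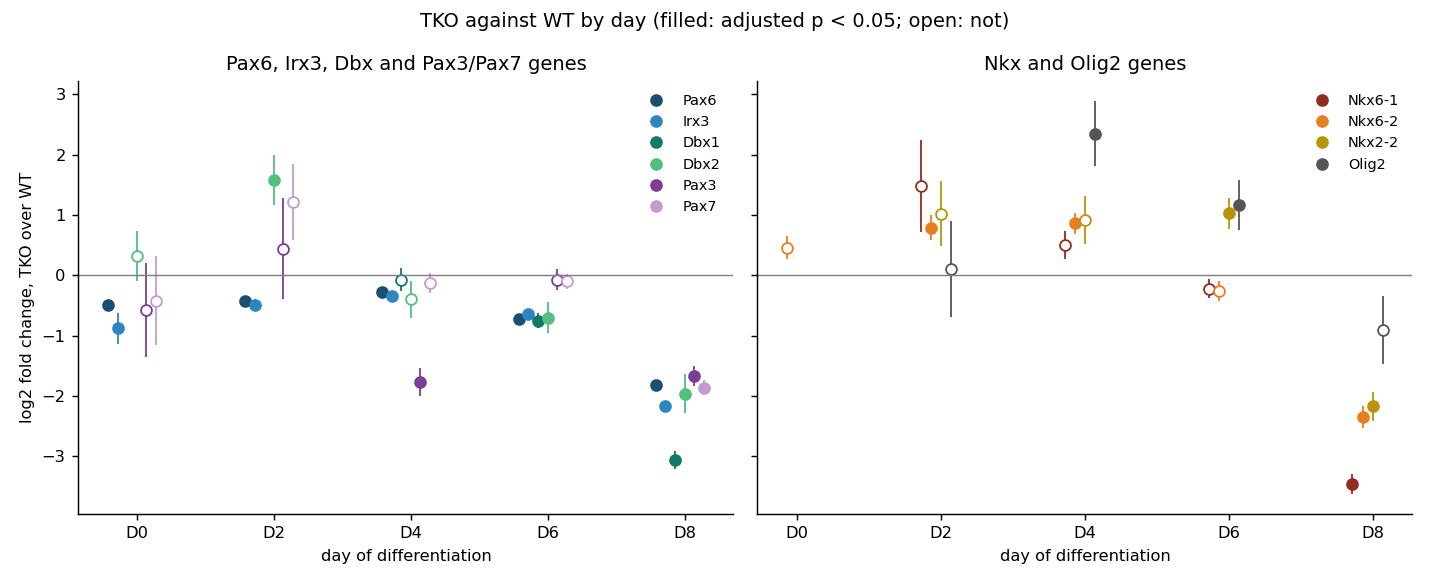
Log2 fold change of TKO over WT (vertical axis) at each day (horizontal axis), with genes that Shh represses at the left and genes that need it at the right. Points are edgeR estimates from 2 TKO and 2 WT libraries, bars are 1 SE and filled points passed at an adjusted p under 0.05; Dbx1 at D0 and D2 and Nkx6-1, Nkx2-2 and Olig2 at D0 are not drawn because a group held 3 counts or fewer, and all 10 genes are below 0 at D8.

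The order in which the genes appeared was read from the steps within each genotype. Pax6 and Nkx6-2 were counted in stem cells, Nkx6-2 at 9.77 ± 1.56 CPM in TKO and 7.1 ± 0.0696 CPM in WT at D0. Inpp5a, with which Nkx6-2 shares sequence, was at 38.3 CPM in TKO and 35 CPM in WT there. The Nkx6-2 level in stem cells is thus less certain. Over D0 to D2, 2 of the 10 genes rose and 1 fell in TKO (26.6% and 26.9% of all genes), and the same numbers rose and fell in WT (25.8% and 28.9%). Irx3 rose most, by 5.27 (SE 0.159) in TKO and 4.88 (SE 0.136) in WT on the log2 scale. Nkx6-2 fell in both genotypes, by 0.46 in TKO and by 0.79 in WT, and the TKO call was lost in 5 of 10 alternatives (adjusted p 0.00219 to 0.301), 2 of which left out TKO D0 replicate 2 or TKO D2 replicate 2. Nkx2-2 also rose, with 13 and 13 counts at D2 in TKO against 2 and 2 at D0, and 11 and 3 counts at D2 in WT against 1 and 2 at D0. The WT ratio of 4.82 has a 95% counting interval of 1.35 to 26.2, and that call was lost in 4 of 9 alternatives (0.0032 to 0.592), 3 of which left out WT D0 replicate 1, WT D0 replicate 2 or WT D2 replicate 1. By edgeR, 0 of the 10 passed the interaction over this step, where 18.4% of all genes did. At an unadjusted p under 0.05 it was 1 of 10 (Nkx6-1), DESeq2 called 0, and 1 passed when no low-count filter was applied.

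Between D2 and D4, 8 of the 10 genes rose in TKO and 8 in WT, with 0 falling in either. Of all genes, 31.6% rose and 30.3% fell in TKO, and 31.8% rose and 30.1% fell in WT. Dbx1 was counted 216 and 264 times in TKO at D4 against 0 and 3 times at D2, a count ratio of 133 (95% counting interval 45.1 to 646); without TKO D2 replicate 2, no D2 count is left. In WT it was counted 257 and 260 times at D4 against 1 and 2 times at D2, a ratio of 156 (53.1 to 760). Pax3, Pax7 and Nkx6-1 rose by 3.45, 4.00 and 3.31 in TKO and by 5.65, 5.35 and 4.30 in WT on the log2 scale, from 12 or fewer counts per library at D2. Without 1 D2 library, the Pax3 rise in TKO ranged from 2.63 (replicate 1 left out) to 4.97 (replicate 2 left out), and it was 6.57 in WT without replicate 2. The Pax7 rise in WT was 6.29 without D2 replicate 1 and 4.64 without D2 replicate 2.

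Olig2 was among the 8 in TKO (log2 change 2.74, adjusted p = 0.000626; 3.88 without TKO D2 replicate 1) and not in WT (0.50, adjusted p = 0.579). Dbx2 was among the 8 in WT (2.41; 3.24 without WT D2 replicate 2 and 1.37 with length-scaled TPM counts) and not in TKO (0.44, adjusted p = 0.274). The interaction over this step passed for 1 of the 10, Dbx2 (-1.97, SE 0.519, adjusted p = 0.0145), and for 15.8% of all genes. It was lost in 3 of 14 alternatives, with length-scaled TPM counts and without WT D2 replicate 1 or TKO D2 replicate 2 (adjusted p 0.000713 to 0.506 over the 14), and it was -2.80 without WT D2 replicate 2. The interaction for Olig2 did not pass (2.24, SE 0.997, adjusted p = 0.145).

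From D4 to D6, 7 of the 10 rose in TKO and all 10 rose in WT, with 0 falling. Of all genes, 24.7% rose and 23.4% fell in TKO, and 27.3% rose and 26.0% fell in WT. The genes that did not pass in TKO were Pax6 (0.12), Irx3 (0.09) and Nkx6-2 (0.39, adjusted p = 0.0538). Dbx1 had the largest rise, by 4.60 (SE 0.163) in TKO and 5.28 (SE 0.165) in WT. The Olig2 rise of 1.40 in TKO (adjusted p = 0.0107) was lost without TKO D4 replicate 1 or TKO D6 replicate 1 (0.00024 to 0.0817 over 10 alternatives). In WT Olig2 rose by 2.59, and by 3.28 without WT D4 replicate 2.

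The interaction over D4 to D6 passed for 4 of the 10 and for 17.1% of all genes. Pax3 had the larger rise in TKO, and Pax6 (-0.43, SE 0.0843), Nkx6-2 (-1.12, SE 0.232) and Dbx1 (-0.68, SE 0.227, adjusted p = 0.0497) had the smaller change in TKO. The Dbx1 call was lost in 8 of 14 alternatives, 6 of which left out 1 library (WT D4 replicate 1 or 2, WT D6 replicate 1 or 2, TKO D4 replicate 2 or TKO D6 replicate 1), and its adjusted p ran from 7.11e-06 to 0.327 over the 14.

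Levels of different genes were compared per length, by the deposited TPM summed over the transcripts of a gene. Most of the Dbx2 TPM fell on Dbx2-202, a noncoding transcript of 477 bases. In TKO at D8 the order was Pax6 (36.6 TPM), Irx3 (31), Dbx1 (18.9), Pax3 (8.4), Nkx6-2 (6.98), Pax7 (5.12), Nkx6-1 (4.22), Nkx2-2 (3.6), Dbx2 (1.64) and Olig2 (0.213). In WT at D8 the order was Dbx1 (202 TPM), Irx3 (179), Pax6 (154), Nkx6-1 (59.2), Nkx6-2 (44.6), Pax3 (34.3), Nkx2-2 (24.4), Pax7 (23.9), Dbx2 (5.05) and Olig2 (0.521). The neighbours whose libraries overlapped were Nkx6-1 and Nkx2-2 in TKO, and Nkx2-2 and Pax7 in WT. Nkx6-1 was thus the seventh gene in TKO and the fourth in WT.

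At D6 the first 6 places were held by the same genes in the same order in both genotypes. They were Dbx1, Pax6, Irx3, Nkx6-2, Nkx6-1 and Pax3, followed by Pax7, whose WT libraries (8.87 and 9.36 TPM) overlapped those of Dbx2 (6.28 and 9.61 TPM). Dbx1 stood at 160 TPM in TKO and 268 TPM in WT. Pax6 led at D0, D2 and D4 in both genotypes, with 29.7 and 30.7 TPM at D0 and D2 in TKO and 42.8 and 42.7 TPM at D0 and D2 in WT. At D0 it made up 70.1% of the summed TPM of the 10 genes in TKO and 81.3% in WT, and Nkx6-2 made up 24.5% and 15.2%. The summed level of all 10 genes was 516 to 611 CPM in TKO at D6 and 164 to 172 CPM in TKO at D8, against 831 to 888 CPM in WT at D6 and 804 to 837 CPM in WT at D8.

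The balance within mutually repressive pairs was read as a TPM ratio per library, with no test. Nkx6-1 over Dbx2 was 2.13 and 3.44 in the TKO libraries at D8, against 9.49 and 14.4 in the WT libraries. At D6 the same ratio was 3.3 and 3.16 in TKO and 2.97 and 1.84 in WT. The groups did not overlap at either day, and the order of the genotypes differed between them. Dbx2 had 26 and 19 counts in TKO at D8. At D6 its noncoding transcript Dbx2-202 took 66.1% of its TPM in TKO and 66.5% in WT, but 15.1% and 15.4% of its counts. The Dbx2 values in this ratio thus rest mostly on that transcript, and the ratio on the coding transcript alone was not computed. Nkx2-2 over Pax6 was 0.114 and 0.0851 in TKO at D8, against 0.147 and 0.168 in WT, and 0.0541 and 0.058 in TKO at D6, against 0.0177 and 0.00975 in WT. This pair too had the higher ratio in TKO at D6 and in WT at D8.

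Nkx6-2 over Dbx1 was 0.379 and 0.355 in TKO at D8, against 0.2 and 0.242 in WT, and 0.2 and 0.172 in TKO at D6, against 0.144 and 0.111 in WT. Olig2 over Irx3 was 0.00521 and 0.00853 in TKO at D8, against 0.00268 and 0.00314 in WT, and 0.0289 and 0.0206 in TKO at D6, against 0.00771 and 0.00647 in WT. Both pairs had the higher ratio in TKO at both days. Nkx6-1 over Pax7, a ventral against a dorsal gene, was 0.91 and 0.742 in TKO at D8, against 2.05 and 2.99 in WT, while at D6 it was 1.69 and 2 in TKO and 2.1 and 1.89 in WT, where the libraries overlapped.

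Pax6 exists in a form with exon 5a, an alternative exon that adds amino acids to the paired domain and alters its DNA binding. It is shown because its use could be followed in every group. On GRCm38 (GENCODE M21) it spans chr2:105684751-105684792 on the + strand, 42 bases, here in capitals between 15 bases of exon 5 and 15 bases of exon 6.
Pax6 exon 5a: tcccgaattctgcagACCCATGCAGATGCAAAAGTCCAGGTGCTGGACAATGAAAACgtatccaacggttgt
Of 13 Pax6 transcripts that hold both flanking exons, 7 include exon 5a. They took 40.6% and 38.2% of the estimated counts of the 13 in TKO at D2, against 25.7% and 22% in WT. At D0 they took 26.7% and 19% in TKO and 26% and 19.9% in WT, which overlapped. Their share was 24% and 24.3% in TKO and 25.6% and 23.1% in WT at D6, and 35.1% and 39.5% in TKO and 33.8% and 34.4% in WT at D8. The D8 libraries of both genotypes were above the D6 libraries of both. By shares of TPM the group means were lower, at 37.4% in place of 39.4% in TKO at D2. These shares divide reads between overlapping transcripts by kallisto's estimate, and no test was made of them.

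**Figure D4:**
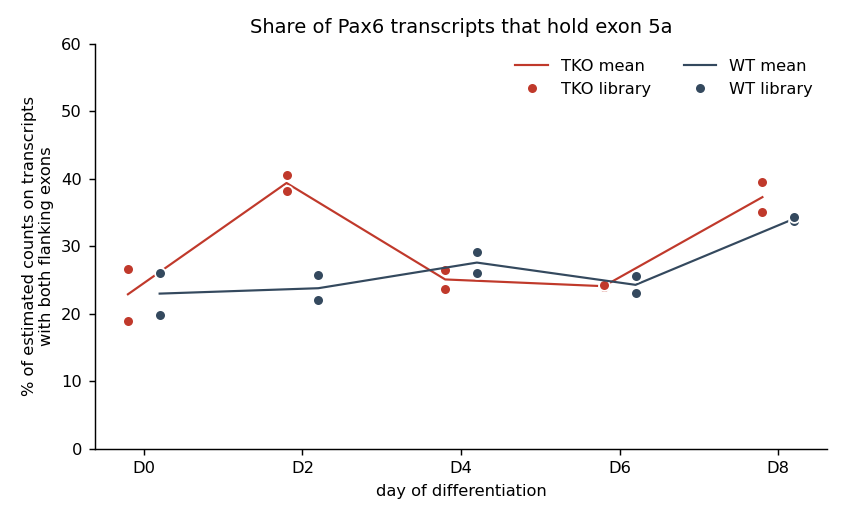
Share of the estimated counts on 13 Pax6 transcripts with both flanking exons that falls on the 7 with exon 5a (vertical axis, percent, from 0) at D0 to D8 (horizontal axis), TKO in red at the left and WT in dark blue at the right of each day. Points are single libraries and lines join the means of 2; the TKO libraries at D2 lie at 40.6% and 38.2%, above the WT libraries at 25.7% and 22%.

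Of the other members, Nkx6-2 showed a change with time in which transcript was counted, chosen after its values were seen. Nkx6-2-201, annotated as a target of nonsense-mediated decay, took 15.7% of Nkx6-2 counts at D0 and 38.8% at D8 in TKO (means of 2 libraries), and 16% at D0 and 44.5% at D8 in WT. Pax6-204 was the Pax6 transcript with most counts, at 31.2% in TKO and 31.5% in WT at D8. Transcripts of Pax6 with a retained intron took 9.54% and 8.61% in TKO at D8, against 13.1% and 11.4% in WT.

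Markers of other cell states moved with the D8 result. All 6 pluripotency genes were higher in TKO at D8 (median log2 fold change 4.86), and their summed level was 931 to 982 CPM in TKO, against 27.3 to 45.5 CPM in WT. Pou5f1, which encodes Oct4, was at 526 ± 37.5 CPM in TKO and 12.5 ± 7.13 CPM in WT (SD, n = 2). All 6 neural progenitor genes were lower in TKO (median -0.71), and their summed level was 1120 to 1130 CPM in TKO, against 2390 to 2440 CPM in WT. The intermediate filament genes Vim and Nes had log2 fold changes of -1.49 (SE 0.0802) and -1.22 (SE 0.0811), and Fabp7, a fatty acid binding protein of radial glia, had -0.85 (SE 0.156). The progenitor factors Sox1 and Sox2 had -0.57 (SE 0.0918) and -0.45 (SE 0.0592). Sox2 is also a stem cell gene, at 543 CPM in TKO and 708 CPM in WT at D0 (means of 2 libraries). Of 6 neuron genes, 1 was higher (Nefm, which shares 19.1% of its 31-mers with Nefl and is less certain) and 5 lower (median -1.77), with 1050 CPM in both TKO libraries and 3240 to 3260 CPM in WT. At D6, all 6 pluripotency genes were already higher in TKO (133 to 178 CPM summed, against 10.6 to 19.7 CPM in WT), as were all 6 neuron genes (1360 to 1800 CPM summed, against 641 to 699 CPM in WT), and 1 neural progenitor gene was higher and 4 lower. No marker of these 3 lists was at 0 in both libraries of a group at D6 or D8. The part of these cell states in the differences of the 10 genes was not tested.

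Genes of the same axis outside the set were read from lists written from general knowledge. Over all genes, 35.8% were higher and 31.8% lower in TKO at D8, and 20.9% and 20.3% at D6, and the counts of the lists stand beside these shares. Of 16 roof plate and dorsal progenitor genes tested (17 listed), 2 were higher and 9 lower in TKO at D8 (median -1.01), against 6 higher and 2 lower at D6 (median 0.39). The leading ones at D8 were Wnt1, a roof plate signal (-2.79), Zic1 (-2.50) and Olig3 (-2.48). Zic2, a relative of Zic1 named after its values were seen, went the other way, with means of 103 CPM in TKO and 26.7 CPM in WT (1.94, SE 0.0774), so that the summed level of the list was 139 to 143 CPM in TKO and 142 CPM in both WT libraries. Of 10 floor plate and ventral progenitor genes, 2 were higher and 7 lower at D8 (median -0.92), against 2 higher and 3 lower at D6 (median 0.07). Irx5, the neighbour of Irx3 in the same gene cluster and no floor plate gene, had the largest difference of the list, at 34.1 ± 0.374 CPM in TKO and 181 ± 4.57 CPM in WT (log2 fold change -2.41, SE 0.0836), followed by Ntn1, a floor plate guidance cue (-1.80), and Prdm8 (-1.60). The floor plate genes Foxa2 and Spon1, also named after their values were seen, had -0.86 (SE 0.164) and -0.70 (SE 0.116). Both are on the lower side, and the 2 higher genes of this list are not named here.

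Listed genes of neuron classes that arise from these domains had medians of opposite sign at D6 and D8. In stem cells (D0) the 14 ventral genes summed to 55.2 to 57.5 CPM in TKO and 27.4 to 34.3 CPM in WT. At D6 their TKO and WT sums were 56.3 to 66.6 and 28 to 33.1 CPM. At D8 they were 50.2 to 50.4 and 106 to 121 CPM. For the 16 dorsal genes the TKO and WT sums were 80.6 to 81.7 and 39.9 to 46.3 CPM at D0. They were 159 to 188 and 97.5 to 100 CPM at D6, and 135 to 136 and 382 to 398 CPM at D8. The lists thus do not count neurons alone. Of 14 genes of ventral postmitotic classes, 9 were higher and 0 lower in TKO at D6 (median 0.86), and 2 were higher and 7 lower at D8 (median -0.82). Evx2, a marker of the class born from Dbx1 progenitors, was at 1.06 ± 0.0762 CPM in TKO and 12.4 ± 0.702 CPM in WT at D8 (log2 fold change -3.54, SE 0.221). Of 16 genes of dorsal postmitotic classes, 11 were higher and 1 lower at D6 (median 1.58), and 3 were higher and 9 lower at D8 (median -1.05). Pax2, a marker of inhibitory interneurons, was lower at D8 (-2.79), as was Isl1 (-2.78), which is in both lists. Foxd3, also in both lists and known in pluripotent cells as well, was higher (3.22).

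Of 11 Shh transducers and targets, 2 were higher and 8 lower in TKO at D8 (median -0.63), and 1 was higher and 8 lower at D6 (median -0.25). Boc, a Shh co-receptor (-1.58), and the feedback inhibitors Hhip (-1.57) and Ptch1 (-1.09) led at D8, with Ptch1 at 131 ± 5.93 CPM in TKO and 279 ± 13.8 CPM in WT. Gli1 and Shh are given outside the rule for named genes and were picked after their values were seen. Both were lower in TKO at D8, and the 2 higher genes among the 11 are not named here. Gli1, a direct Shh target, was at 18.4 and 14.3 CPM in TKO at D8, against 31.8 and 35 CPM in WT (log2 fold change -1.03). Shh itself was at 10.7 and 10.5 CPM in TKO, against 20.6 and 23.6 CPM in WT (log2 fold change -1.06). Of 6 Bmp targets, 3 were higher and 1 lower at D8 (median 0.63), led by Bambi (1.24), Smad7 (1.03) and Id1 (1.02), and 4 were higher and 0 lower at D6. Of 6 retinoic acid targets, 3 were higher and 2 lower at D8 (median 1.12), and 3 were higher and 1 lower at D6. The receptor gene Rarg was higher at D8 (3.81), at 62 CPM in TKO and 4.39 CPM in WT, after 206 CPM in TKO and 172 CPM in WT at D0, so that it is high in stem cells. Dhrs3 (1.87) and Cyp26a1 (1.84) were also higher, while Crabp2 (-1.22) and Rarb (-1.06), which shares 32.1% of its 31-mers with Top2b and is thus uncertain, were lower.

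**Figure D5:**
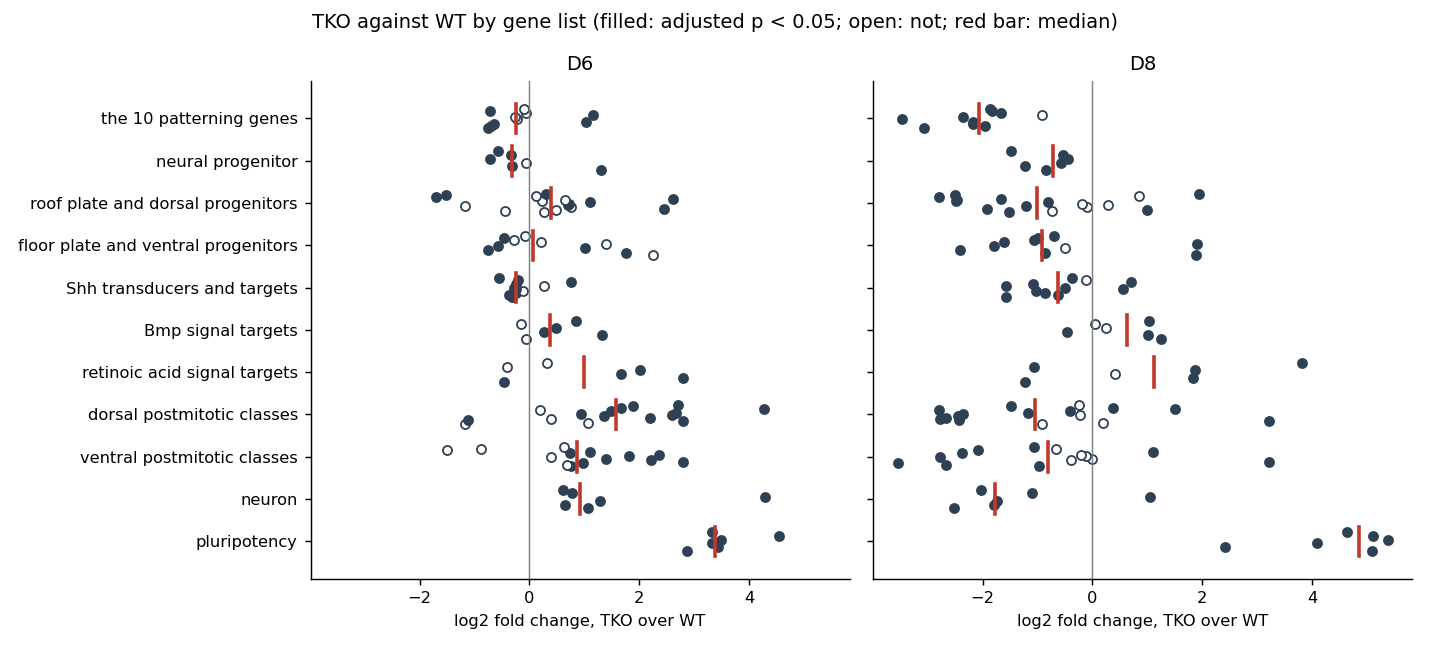
Log2 fold change of TKO over WT (horizontal axis) at D6 (left) and D8 (right) for the 10 patterning genes and genes of 10 lists (rows). Each point is a gene, filled where it passed at an adjusted p under 0.05, and red bars are medians; the median of the 10 patterning genes is -0.24 at D6 and -2.07 at D8, and those of both postmitotic lists are above 0 at D6 and below 0 at D8.

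For each gene the most similar profiles were sought among 12409 genes, by Pearson's r of log2(CPM + 1) over the 10 group means, as a description. Pax3 and Pax7 both had Fat4 among their nearest 3 (r = 0.989 and 0.997), and Fat4, an atypical cadherin, was at 106 CPM at D6 and 56.8 CPM at D8 in TKO, and at 105 and 315 CPM in WT. Pax7 also had Sox9 (0.994), a transcription factor of radial glia. Nkx6-1 had Galnt18 (0.997), Nkx2-2 had Cacna1h (0.992), Irx3 had Flywch1 (0.992), Dbx1 had Trim35 (0.993) and Pax6 had Fam122a (0.988). The nearest genes of Dbx2, Nkx6-2 and Olig2 were Col26a1 (0.974), Atg4a (0.959) and Prelp (0.968), at lower r than for the other 7 genes.

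On GRCm38, in GENCODE M21, Pax6 (ENSMUSG00000027168.21) lies on chromosome 2 from 105668900 to 105697364 and Nkx2-2 (ENSMUSG00000027434.11) on the same chromosome from 147177546 to 147194243. Dbx1 (ENSMUSG00000030507.6) lies on chromosome 7 from 49631499 to 49636849 and Nkx6-2 (ENSMUSG00000041309.17) on chromosome 7 from 139579376 to 139582797. Irx3 (ENSMUSG00000031734.13) is on chromosome 8 from 91798525 to 91802067, Nkx6-1 (ENSMUSG00000035187.10) on chromosome 5 from 101658139 to 101664996, and Olig2 (ENSMUSG00000039830.9) on chromosome 16 from 91225457 to 91228677. Pax3 (ENSMUSG00000004872.15) is on chromosome 1 from 78101267 to 78197134, Pax7 (ENSMUSG00000028736.13) on chromosome 4 from 139737062 to 139833528, and Dbx2 (ENSMUSG00000045608.7) on chromosome 15 from 95623563 to 95655960. Values here are sums over all annotated transcripts of a gene, coding and noncoding. Antisense genes that overlap Pax6, Irx3 and Nkx2-2 are not among the transcripts of the tables, and whether the counting used strand is not given in the sources used here, so reads from them cannot be told apart from those of the members.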

How the data were processed

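Libraries were prepared with the TruSeq Stranded mRNA protocol, per the labels' protocols. The authors deposited kallisto tables of estimated counts per transcript, which are not scaled to depth, with TPM (scaled to length and to a fixed sum) and lengths per the file headers. The submitters' processing notes name Trim Galore 0.6.2, kallisto, GRCm38 and mm10. The kallisto version, transcript set and strand setting are not given in the sources used here.

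The 119414 transcripts of a table were matched to GENCODE M21. The 2686 without a match (0.943% to 1.1% of counts) were left out. Estimated counts were summed per gene, rounded and fitted with edgeR 4.0.16 in R 4.3.3 (quasi-likelihood F test, TMM, filterByExpr, 10 groups in 1 fit), with Benjamini-Hochberg adjustment over 18555 genes. There were 17 comparisons: TKO with WT on each of the 5 days, each day with the day before it in either genotype, and the interaction of genotype with each such step. The p-values rest on a spread between biological replicates that was estimated over all 10 groups, not on the compared groups alone. The groups differed in this spread (chi-square per degree of freedom 2.98 to 29.7). Having 2 replicates per group also limits the precision of each level, and intervals at 95% cover counting error only.

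The members and lists were chosen with earlier results of these data known. Named genes were the 10 members and, per list, up to 3 with the largest change at D8 among those called with at least 1 CPM in a group, plus marker genes whose level stands beside a result. Similar genes had at least 5 CPM in a group and no predicted or clone name. Alternatives were scaling by relative log expression (RLE), dropping the filter on low counts, a block for the replicate number, length-scaled TPM counts, DESeq2 1.42.0, the compared groups alone and leaving out each library of the compared groups. When a group was left with 1 library, that library was assumed to vary like the others. Tested on simulated data for TKO against WT at D8 (17591 genes), the fit recovered 54 of 67 changes of 1.5-fold, 63 of 67 of 2-fold and 66 of 66 of 4-fold, with 13 false calls.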

Additional observations from a re-analysis of the deposited data

Results flagged for a closer look

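For the values below, the effect of genotype differed between consecutive days by a test of the difference itself, the interaction term in the edgeR fit with Benjamini-Hochberg adjustment over all genes. Each is the log2 change over the step in TKO minus that in WT, from 2 libraries per group.

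Over the step to D8 from D6, all 10 genes met this rule with a lower change in TKO. Of all genes tested, 49.9% met the rule, and 24.4% of all genes met it with a lower change in TKO. Nkx6-1 had -3.23 (adjusted p = 3.98e-09) and Nkx2-2 had -3.20 (adjusted p = 7.19e-07), 2 of the 4 genes that rose in WT over this step. Dbx1 had -2.30 (adjusted p = 4.49e-08), Nkx6-2 had -2.09 (adjusted p = 1.06e-06) and Olig2 had -2.07 (adjusted p = 0.02). Pax7 had -1.76 (adjusted p = 3e-07), Pax3 had -1.61 (adjusted p = 1.91e-05) and Irx3 had -1.53 (adjusted p = 1.25e-08). Dbx2 had -1.26 (adjusted p = 0.0184) and Pax6 had -1.10 (adjusted p = 1.44e-08).

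Over the step to D6 from D4, where 17.1% of all genes met the rule, Pax3 had 1.70 (adjusted p = 0.00038). This was the opposite sign to its value over the next step. Nkx6-2 had -1.12 (adjusted p = 0.00244), Dbx1 had -0.68 (adjusted p = 0.0497) and Pax6 had -0.43 (adjusted p = 0.00148). Over the step to D4 from D2, where 15.8% of all genes met the rule, Dbx2 had -1.97 (adjusted p = 0.0145). The calls of Olig2 and of Dbx2, and of Dbx1 to D6, were each lost when a single library was left out.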

How the results depend on the processing

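For the 98 results called among the 10 genes, 1039 values were computed under the alternatives: 974 kept direction and side of the threshold, 65 kept direction and lost the call, and 0 turned direction. The 65 fall on 18 results, and 0 fall on TKO against WT at D8. Interactions over D2 against D0 numbered 2276 genes with length-scaled TPM counts (3421 in the fit as reported) and 2122 to 3894 with 1 library left out, lowest without WT D2 replicate 2. Of the 10 genes, 1 was called there without a low-count filter, in place of 0. For D4 against D2, 2 were called without that filter, 2 by DESeq2 and 0 with length-scaled TPM counts, in place of 1, and 0 to 2 with 1 library left out. TKO against WT at D4 gave 3355 to 3904 genes with 1 library left out, in place of 5259, lowest without TKO D4 replicate 2. At D6, 3 to 6 of the 10 were called, lowest without WT D6 replicate 2. With 1 library fewer the test has less data; the cause of the other shifts was not tested. Under RLE, 3 of 100 group levels moved by more than their SD (0.972 to 1.02 times the TMM level over the 100), and the share of exon 5a by TPM moved in 4 groups.

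Replicate numbers were taken to share only a number: over 45 pairs of groups, the correlation of same-numbered deviations ran from -0.113 to 0.134. With the replicate block, 12483 genes were called in TKO against WT at D8, against 12532 without it, and among the 10 genes the block changed the call of Nkx6-2 for D2 against D0 in TKO alone (adjusted p = 0.0512). With 2 libraries per group, levels of 3 counts or fewer over both libraries were at the limit of this depth. These were Dbx1 at D0 and D2, Nkx6-1 and Nkx2-2 in WT at D0, and Olig2 in TKO at D0.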

Other observations

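Position along the other axis of the neural tube, from head to tail, was read from 3 lists in the same way, beside the 35.8% of all genes that were higher and 31.8% that were lower in TKO at D8. Of 6 forebrain and hypothalamus genes tested, 3 were higher and 2 lower in TKO at D8 (median log2 fold change 0.48), against 5 higher and 1 lower at D6 (median 2.00). Otp, a factor of hypothalamic neurons, was at 8.16 ± 0.0698 CPM in TKO and 242 ± 0.267 CPM in WT at D8 (SD, n = 2; log2 fold change -4.89, SE 0.173). Of 8 midbrain and hindbrain genes, 1 was higher and 5 lower at D8 (median -1.10), and 2 were higher and 3 lower at D6 (median -0.26). Hoxa2, a hindbrain gene, was at 2.37 ± 0.0131 CPM in TKO and 61.1 ± 0.0877 CPM in WT at D8 (log2 fold change -4.69, SE 0.135); it shares 13.7% of its 31-mers with Gm28308, so its counts are less certain. Of 8 spinal cord genes, 5 were higher and 1 lower at D8 (median 1.24), and 7 were higher and 0 lower at D6 (median 2.39). Hoxb8 was at 3.11 ± 0.451 CPM in TKO and 1.38 ± 0.218 CPM in WT at D8, and Hoxb9 was at 1.38 ± 0.125 CPM in TKO and 0.174 ± 0.0762 CPM in WT.

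Lists of other tissues in which some of the 10 genes are used held mostly low values. Of 6 neural crest genes, 2 were higher and 1 lower in TKO at D8 (median 0.07). Of 6 somite and muscle genes tested, 3 were higher and 0 lower (median 1.86), with Tcf15 at 10.7 ± 1.95 CPM in TKO and 1.93 ± 0.442 CPM in WT. Of 6 eye field and lens genes tested, 3 were higher and 1 lower (median 0.45). Of 7 pancreatic endoderm genes, 2 were tested and 1 was higher (Sox17, 11.3 ± 4.16 CPM in TKO and 6.96 ± 2.1 CPM in WT).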
